A study of Mus musculus with 4 samples.

Results

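Interferon-stimulated T cells are described here as a set of 415 cells among the immune cells of the mouse small-intestinal crypt. The members were chosen by their own measured transcripts: a cell belonged to the set when it held at least 1 unique molecular identifier (UMI, the tag that marks 1 captured RNA molecule) of Cd3e, Cd3d or Cd3g, at least 2 of the interferon-induced genes Ifit1, Ifit3 and Isg15, and no UMI of Cd79a, Siglech or Lyz2. Cd3e, Cd3d and Cd3g encode the signalling chains of the T cell receptor complex, whereas Cd79a, Siglech and Lyz2 mark B cells, plasmacytoid dendritic cells and myeloid cells. The set held 77 and 124 cells in control replicates 1 and 2, and 101 and 113 cells in cystine replicates 1 and 2. These were drawn from 56824 Cd3-positive cells that lacked the 3 excluded transcripts, themselves part of 68087 barcodes kept in the whole series, and the remaining 56409 Cd3-positive cells are called other T cells below. Of the members, 333 carried 2 of the 3 interferon genes and 82 carried all 3.

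The cells came from male mice, by the labels, that ate either a control diet or a diet high in cysteine, which the sample titles call cystine. CD45+ cells, the blood-derived immune cells, were sorted from dispersed crypts and loaded for 4 single-cell 5′ libraries, 2 per diet. Strain, age and the number of mice behind a sample are not given in the labels, so a p-value here reflects no more than the spread among the 4 samples, which may be technical. The series' title names the question behind the diets, an effect of dietary cysteine through CD8+ T cells and their IL-22.

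Type I and type III interferons are cytokines released when a cell senses viral or other foreign nucleic acid. Binding to their receptors activates the kinases JAK1 and TYK2 and through them a transcription factor complex with IRF9, which binds interferon-stimulated response elements in promoters and switches on a large set of antiviral genes. Interferon gamma acts through a receptor of its own on an overlapping set, and the gut epithelium with its intraepithelial T cells is known to hold a low resting level of both kinds of signalling.

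The promoters of the genes that define the cells show the element through which this response is read. Below are 220 bases upstream of the start sites, 5′ to 3′ on the gene's own strand, from RefSeq on GRCm38.p6, a build other than the one the libraries were aligned to. They cover Ifit1 (chr19:34640669-34640888, plus strand), Ifit3 (chr19:34583309-34583528, plus strand), Isg15 (chr4:156200819-156201038, minus strand), Rsad2 (chr12:26456453-26456672, minus strand), Bst2 (chr8:71537473-71537692, minus strand) and Cxcl10 (chr5:92348890-92349109, minus strand). The first 3 are the genes of the rule, Rsad2 and Bst2 are antiviral genes that it did not use, and Cxcl10 is the label's other marker. Capitals mark matches to the core of the response element, GAAANNGAAA, or to its reverse complement TTTCNNTTTC.
Ifit1: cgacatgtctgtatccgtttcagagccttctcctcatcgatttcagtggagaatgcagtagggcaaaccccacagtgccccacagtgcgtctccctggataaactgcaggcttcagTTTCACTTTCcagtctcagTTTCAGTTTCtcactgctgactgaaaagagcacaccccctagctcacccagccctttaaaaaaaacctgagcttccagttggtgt
Ifit3: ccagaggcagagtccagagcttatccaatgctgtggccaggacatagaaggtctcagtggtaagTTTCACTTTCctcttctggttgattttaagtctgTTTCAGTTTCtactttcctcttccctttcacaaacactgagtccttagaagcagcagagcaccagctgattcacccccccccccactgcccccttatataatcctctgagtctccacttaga
Isg15: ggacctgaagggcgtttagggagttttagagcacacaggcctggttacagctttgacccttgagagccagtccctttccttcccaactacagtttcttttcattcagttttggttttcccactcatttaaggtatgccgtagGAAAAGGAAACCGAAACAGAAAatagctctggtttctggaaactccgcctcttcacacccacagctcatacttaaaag
Rsad2: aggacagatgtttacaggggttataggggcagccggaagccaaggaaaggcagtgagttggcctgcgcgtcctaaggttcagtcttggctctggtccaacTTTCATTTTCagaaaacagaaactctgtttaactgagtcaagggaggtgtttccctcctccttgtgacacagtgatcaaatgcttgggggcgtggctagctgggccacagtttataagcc
Bst2: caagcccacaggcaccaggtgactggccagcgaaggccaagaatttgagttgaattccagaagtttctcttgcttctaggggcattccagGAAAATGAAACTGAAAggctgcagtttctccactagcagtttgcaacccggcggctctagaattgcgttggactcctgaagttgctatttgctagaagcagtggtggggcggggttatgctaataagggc
Cxcl10: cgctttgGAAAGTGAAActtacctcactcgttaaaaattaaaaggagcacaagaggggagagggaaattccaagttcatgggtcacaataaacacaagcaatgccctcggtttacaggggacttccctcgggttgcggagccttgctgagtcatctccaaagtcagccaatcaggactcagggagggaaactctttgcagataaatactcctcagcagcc
The matches began 104 and 85 bases upstream of the start in Ifit1, and 156 and 122 bases upstream in Ifit3. In Isg15 there were 3 overlapping matches that began 78, 72 and 66 bases upstream, and Bst2 had 2 overlapping ones at 130 and 124. Rsad2 had 1 at 120 and Cxcl10 1 at 213. Over the 250 bases before each RefSeq start site, 936 of 27025 genes (3.46%) held the motif on either strand. Of the 120 genes of the interferon lists with a promoter in the table, 45 (37.5%) held it. The families differed, from 10 of 11 inducible GTPases and 5 of 6 IFIT genes down to 3 of 16 MHC class I genes, 1 of 5 genes of ISG15 conjugation and 0 of 7 nucleic acid sensors. No match lay in this window of Irf7, Cmpk2, Oasl2 or Ly6c2, which says only that these letters are not there.

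Depth was similar across the libraries. The deposited matrices held 27229695 and 30684435 UMIs in the control samples and 31301936 and 31215609 in the cystine samples, and the members contributed 171251, 346712, 167020 and 278310 of them (here and below, values for the 4 samples follow the order control replicates 1 and 2, cystine replicates 1 and 2). A member held a median of 1728, 2035.5, 1482 and 2102 UMIs, against 1381, 1742, 1339 and 1519 in the other T cells. The members were thus the deeper cells in every sample. Mitochondrial transcripts took a median of 0.681% to 0.907% of the members' UMIs and 0.681% to 0.906% of those of the other T cells. Each pair of libraries shared 335 to 454 cell barcodes, up to 2.69% of the smaller library, and no member shared its barcode with a member of another sample. Scrublet scores marked 13.0%, 8.87%, 9.90% and 16.8% of the members as likely doublets, beside 12.0% to 13.2% of the other T cells.

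Transcripts of the Cd3 genes are required by the rule, so their presence in members is no finding. The members' median was 13, 18, 11 and 14 UMIs of the 3 Cd3 genes per cell, against 11, 17, 11 and 12 in the other T cells, and 2, 1, 1 and 2 members rested on a single Cd3 UMI. Relative to all UMIs the 3 genes were lower in the members of every sample, with Cd3e at 2593, 2570, 2742 and 2583 CPM (UMIs of a gene per 1000000 UMIs of that cell set in that sample) against 3273, 3706, 3118 and 3121 in the other T cells. Of the other cell types that a CD45 sort could hold, the 4 neutrophil markers were at 0 in the members of all 4 samples, and the 6 conventional dendritic cell markers were at 0 in 3 samples, with 5 of 6 at 0 in cystine replicate 1. The lists of B cell, plasmacytoid dendritic cell and macrophage markers each hold 1 gene, Cd79a, Siglech and Lyz2, that the rule itself fixes at 0 in both cell sets. Of the other 6 macrophage markers 4 or 5 were at 0, and the list summed to 5.99 to 14.4 CPM, against 9.44 to 14.0 in the other T cells. B cell markers summed to 83.6 to 156 CPM beside 93.6 to 135, plasma cell markers to 53.9 to 101 beside 72.8 to 113, and plasmacytoid dendritic cell markers to 287 to 356 beside 268 to 348. The markers of NK and innate lymphoid cells summed to 127 to 192 CPM in members and 99.7 to 122 in the other T cells. Of these 5 markers only Il7r, given below among genes of naive T cells, was higher in all 4 samples, and it made up most of the members' sums. Mast cell markers lay lower in members (5.84, 20.2, 12.0 and 32.3 CPM against 73.1, 125, 35.3 and 141).

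Epithelial transcripts were the exception, and they came from few barcodes. The 8 epithelial markers summed to 16928, 3605, 257 and 4132 CPM in the members, against 356, 286, 407 and 500 in the other T cells. At least 1% of UMIs came from these markers in 6 members (2, 2, 0 and 2 per sample), which held 1.81% to 10.7% of such UMIs, 3790 to 46294 UMIs each and 1 to 6 Cd3 UMIs. The highest share in any other member was 0.215%. The 6 barcodes made up 16.5%, 17.9%, 0% and 7.67% of the members' UMIs, so counts below are also given without them and without the 62 barcodes of the same kind among the other T cells (17, 7, 13 and 25), a step chosen after the data were seen. It left 75, 122, 101 and 111 members.

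The 3 genes of the rule set the members apart by construction, and their values only describe the choice. Isg15, a ubiquitin-like protein that is attached to other proteins, was detected in 97.3% to 100% of the members of a sample at 1834, 1508, 2317 and 1940.3 CPM. Ifit1, which binds viral RNA that lacks the host's cap methylation, was detected in 75.2% to 79.0% at 555, 473, 629 and 589 CPM. Ifit3, its partner and stabiliser, was detected in 38.6% to 51.3% at 309, 323, 401 and 388 CPM. Ifit1 with Isg15 was the most frequent pair, at 48.7% to 61.4% of members, followed by Ifit3 with Isg15 at 21.0% to 24.8%, whereas Ifit1 with Ifit3 alone occurred in 0, 0, 1 and 3 cells. Reads of Ifit3 and Ifit3b, and of Ifit1 and Ifit1bl1, can be split between near-identical copies.

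In the other T cells Isg15 was detected in 17.6%, 20.8%, 15.5% and 20.5% of cells, Ifit1 in 0.223% to 0.527% and Ifit3 in 0.1246% to 0.232%. In Cd3-negative cells with a Cd79a UMI, taken as B cells, Isg15 was detected in 3.27% to 7.76%. Their median was 1099.5 to 1289.5 UMIs, below that of the other T cells in each sample. Isg15 was detected in 10.3% to 15.2% of Cd3-negative Siglech cells and 21.0% to 36.4% of Cd3-negative Lyz2 cells. The part of background RNA in these shares was not tested. Cells just outside the threshold, with 1 of the 3 genes, made up 16.0% to 21.2% of the Cd3-positive cells. Just inside it, 24.2% to 40.3% of members held only 1 UMI of each of 2 genes. Among Cd3-negative cells, 0% to 0.706% of those with Cd79a, 0.620% to 0.988% of those with Siglech and 5.68% to 8.22% of those with Lyz2 carried at least 2 of the 3 genes.

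Cxcl10, a chemokine that draws CXCR3-bearing T cells and the label's marker outside the rule, was concentrated in a few members. Its level was 99.3, 257, 168 and 144 CPM in the members and 2.83, 3.52, 1.99 and 5.02 CPM in the other T cells, and every member value lay above every other value. It was detected in 13.0%, 16.1%, 6.93% and 7.96% of the members, against 0.256%, 0.473%, 0.277% and 0.315% of the other T cells and 0% to 0.337% of the Cd79a cells. The members held 17, 89, 28 and 40 Cxcl10 UMIs in 10, 20, 7 and 9 cells, and the single richest cell of each sample held 6, 21, 9 and 26 of them. In cystine replicate 2, 1 cell thus carried most of the Cxcl10 UMIs. By number of UMIs more Cxcl10 lay outside the members than in them, with 67, 96, 40 and 119 UMIs in the other T cells.

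Interferon transcripts that the rule did not use took a larger share of the UMIs in cells that carried more of the rule genes. Over 128 other interferon-induced genes, the share of UMIs was 0.907%, 0.915%, 0.909% and 0.917% in cells with none of the 3 genes and 0.952%, 0.981%, 1.02% and 1.02% in cells with 1. It was 1.79%, 1.83%, 2.20% and 1.92% in members with 2 and 2.34%, 2.37%, 4.90% and 3.47% in members with all 3. The order was the same in all 4 samples, with the step at the threshold larger than the step below it. Without the epithelial barcodes the members with 2 genes stood at 1.92%, 1.88%, 2.20% and 2.03%, and those with 3 at 3.29%, 3.45%, 4.90% and 3.47%. These genes vary with the rule's genes, so the gradient carries no test.

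**Figure D1:**
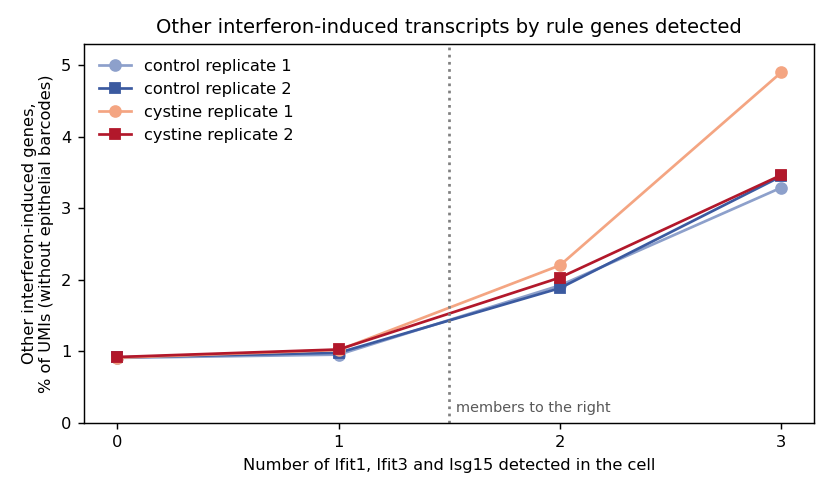
Share of UMIs from 128 other interferon-induced genes (y axis, % of summed UMIs) in Cd3-positive cells that carried 0, 1, 2 or 3 of the rule genes (x axis), 1 line per sample, without the epithelial barcodes. Each line stays at 0.908% to 1.03% up to 1 rule gene and reaches 3.29% to 4.90% at 3.

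Irf7, the amplifier of the type I response, followed the same order. Its level by 0, 1, 2 and 3 rule genes was 85.8, 95.2, 388 and 733 CPM in control replicate 1, and 89.7, 101, 329 and 502 CPM in control replicate 2. It was 108, 122, 514 and 939.9 CPM in cystine replicate 1, and 91.3, 110.2, 396 and 951 CPM in cystine replicate 2. In every sample the cells with all 3 genes held the highest level.

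Single members spread widely around these sums. The per-cell share of the 128 genes had a median of 1.78%, 2.06%, 2.45% and 2.27% in members and 0.879%, 0.894%, 0.883% and 0.891% in the other T cells. It ran from 0.328% in the lowest member to 9.50% in the highest. In the 4 samples 58.4%, 66.1%, 71.3% and 71.7% of members lay above the 95th percentile of the other T cells of their sample, which was 1.57% to 1.69%. The remaining members lay within the range of most other T cells on these transcripts. A member expressed a median of 22, 28, 24 and 30 of the interferon genes, against 10, 12, 10 and 11.

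The interferon programme was higher in the members in most of its families. Of 147 listed genes outside the rule, 98 were higher in CPM in the members of all 4 samples (106 without the epithelial barcodes) and 5 were lower in all 4 (3 without). Over all 20501 detected genes, 3.16% were higher in all 4 samples (3.41% without the epithelial barcodes) and 23.3% lower; most of the latter are sparse genes whose count in the smaller set is 0. The median log2 difference of the 132 listed genes tested was 1.24 (1.32 without the epithelial barcodes), against -0.13 (-0.10) over all genes. The all-gene median was -0.02 with DESeq2 size factors, and values below are to be read against that shift. The genes vary with those of the rule, so their differences are a description with no p-value.

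The RNA-binding IFIT genes and the ISG15 pathway were among the groups with large differences. Ifit3b was detected at 58.4, 34.6, 35.9 and 57.5 CPM in members and 0.169, 0.110, 0.596 and 0.380 CPM in the other T cells (log2 difference 7.35). Ifit2, another RNA-binding member of the family, stood at 40.9, 43.3, 53.9 and 46.7 CPM in members and 9.92, 8.41, 9.24 and 9.07 CPM in the others (log2 difference 2.34). Usp18, the protease that removes ISG15 and dampens the type I receptor, had 81.8, 118, 132 and 162 CPM in members and 3.08, 2.57, 4.72 and 5.40 CPM in the others (log2 difference 5.01). In these 3 genes the lowest member value lay above the highest value of the other T cells. Leaving aside Ifit1, Ifit3 and Isg15, which the rule sets higher, all 4 IFIT genes and 4 of 5 genes of ISG15 conjugation were higher in all 4 samples.

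Sensors of foreign nucleic acid were higher for 6 of 11 genes. Zbp1, a sensor of Z-form nucleic acid that can start necroptosis, was at 339, 251, 377 and 345 CPM in members and 58.8, 58.7, 57.9 and 65.00 CPM in the other T cells (log2 difference 2.42). Dhx58 (LGP2) and Ifih1 (MDA5), RNA helicases of the RIG-I family, had log2 differences of 2.76 and 2.20, and Eif2ak2 (PKR), which halts translation on double-stranded RNA, 1.72. Of the OAS family, which makes the messenger that activates RNase L, 4 of 8 genes were higher in all 4 samples. Oas3 was at 29.2, 31.7, 71.8 and 46.7 CPM against 2.74, 2.61, 3.03 and 3.21 CPM (log2 difference 3.88), and Oasl2 rested on 28 member UMIs at a log2 difference of 5.40.

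Direct antiviral effectors were higher as well. Rsad2 (viperin), which makes a chain-terminating nucleotide, was at 123, 104, 156 and 82.6 CPM in members and 1.94, 1.91, 2.19 and 1.43 CPM in the other T cells (log2 difference 5.92). Its genomic neighbour Cmpk2, a nucleotide kinase, was at 105, 54.8, 89.8 and 89.8 CPM and 0.844, 1.14, 1.29 and 1.69 CPM (log2 difference 6.07). Bst2 (tetherin), which holds budding virus at the membrane, was at 473, 395, 545 and 586 CPM and 72.96, 73.2, 83.8 and 87.1 CPM (log2 difference 2.64). These belong to the restriction factors, of which 10 of 13 were higher in all 4 samples, with a median log2 difference of 1.91. Of the inducible GTPases, which attack the vacuoles of intracellular pathogens, 13 of 16 were, with Gbp6 at 193, 129.8, 174 and 205 CPM against 24.2, 24.5, 25.4 and 23.1 CPM (log2 difference 2.83) and Igtp at a log2 difference of 1.58.

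**Figure D2:**
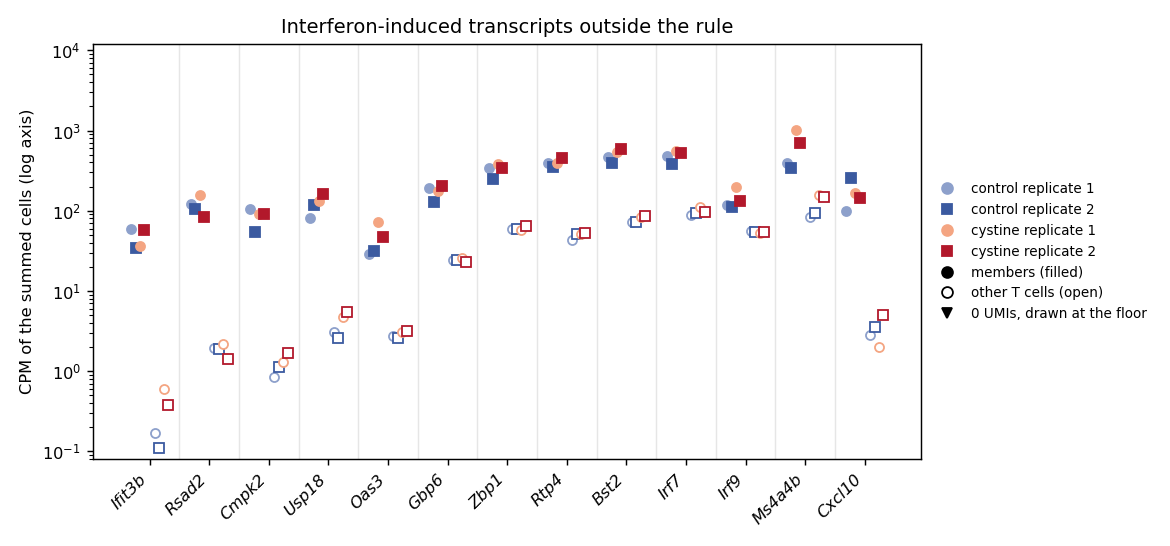
Level of 13 interferon-induced genes outside the rule (x axis) in CPM of the summed cells (y axis, log scale) in members (filled) and other T cells (open), 1 point per sample. For every gene shown all 4 filled points lie above all 4 open points.

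Of the 8 STAT and IRF transcription factors of the response, 4 were higher in all 4 samples and 4 were mixed, with a median log2 difference of 0.75. Irf7 was at 479, 381, 563 and 528 CPM in members and 87.9, 92.7, 110.4 and 96.3 CPM in the other T cells (log2 difference 2.32), with no overlap. The log2 differences of Irf9 and Stat2, factors that also act in the type I response, were 1.33 and 1.25. The median of the 6 PARP and DTX genes, which modify proteins with ADP-ribose or ubiquitin, was 1.30, and all 6 were higher in all 4 samples. MHC class I presentation was the family nearest to the other cells, with a median of 0.35 over 19 genes and 8 higher in all 4 samples (15 without the epithelial barcodes). Its largest named differences were 0.78 for H2-T22 and 0.77 for Tap1, the peptide transporter.

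Among the other induced genes, 34 of 45 were higher in all 4 samples. Ms4a4b, a membrane protein of T cells, was at 397, 340.3, 1024 and 693 CPM in members and 84.1, 92.7, 157 and 148 CPM in the others (log2 difference 2.27). Ifi27l2a, a small mitochondrial protein of the response, was at 391, 332, 784 and 589 CPM and 88.5, 87.8, 142 and 116 CPM (log2 difference 2.22). Ly6a (Sca-1), an interferon-induced surface protein, had 123, 69.2, 443 and 334 CPM and 17.99, 16.1, 75.1 and 59.98 CPM (log2 difference 2.48), and both cystine samples lay above both controls in either cell set. Ly6a and its relative Ly6c2 are members of a gene family in which reads can be misassigned. Plac8 was at a log2 difference of 1.80, and 448 of its 813 member UMIs came from the 6 epithelial barcodes, without which the difference was 1.28.

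Receptors of interferon stood close to the level of the other T cells. The kinase Jak1 was at 449.6, 288, 443 and 366 CPM in members and 406, 354, 394 and 381 CPM in the other T cells, a log2 difference of -0.01 ± 0.12 (SE, adjusted p = 0.98) by edgeR's quasi-likelihood test, Benjamini-Hochberg adjusted over 11581 genes. Ifnar2, a chain of the type I receptor, differed by 0.25 ± 0.19 (SE, adjusted p = 0.59) and Ifngr1, a chain of the interferon gamma receptor, by -0.13 ± 0.13 (SE, adjusted p = 0.73). Of the 8 receptor and kinase genes tested, 1 passed the threshold of an adjusted p of 0.05 as higher and 0 as lower; without the epithelial barcodes 0 passed in either direction. In the same test 4.68% of all genes were called higher and 2.04% lower.

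Interferon transcripts themselves were rare. No member held a UMI of the 18 type I or the 2 type III interferon genes with a row in the matrices, and all kept barcodes of the series together held 4, 1, 5 and 4 type I UMIs and 0, 0, 2 and 0 type III UMIs. A count of 0 allows a share of up to 3.90%, 2.42%, 2.97% and 2.65% of members with such a UMI, counting error only. Ifng, made by T and NK cells, gave 2, 4, 2 and 4 UMIs in the members. Il22, the cytokine of the series' title, gave 0 UMIs in the members. Among all kept barcodes it gave 21, 8, 5 and 343 UMIs, in 20, 7, 4 and 8 cells.

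Of all genes 4.68% were called higher in the members and 2.04% lower (2.02% and 1.27% without the epithelial barcodes). Of 12 inhibitors of cytokine signalling, 1 was called higher and 3 lower, and without those barcodes 1 and 0. The one higher in both was Socs1, which blocks JAK1 and is itself induced by interferon, so that its difference, like those of the interferon lists, is a description with no p-value. It stood at 193, 118, 138 and 205 CPM in members and 89.7, 83.2, 100.3 and 96.1 CPM in the other T cells, a log2 difference of 0.81, higher in 4 of 4 samples.

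Over all genes outside the rule the edgeR quasi-likelihood test called 542 genes higher (4.68% of 11581), 96 of them on the interferon lists, and 236 lower (2.04%), none of them on those lists. With DESeq2 size factors the split was 648 and 117, and with the other T cells drawn to the members' depth it was 279 and 52 of 7780 genes tested. Most of the higher ones came from the 6 epithelial barcodes, which supplied more than 50% of the member UMIs of 332 of the 542 (61.3%) and of 0 of the 236. The 10 largest rises named by size, Clca4b, Gpa33, Cyp4f14, Anxa13, Fam3b, Sectm1b, Cystm1, Cmbl, Tmem54 and Ms4a8a, had 91.9% to 99.3% of their member UMIs there and are not described further. Without those barcodes 230 genes were called higher (2.02% of 11361), 99 of them on the interferon lists, and 144 lower (1.27%), and the split with size factors was 325 and 95. The genes on the interferon lists vary with those of the rule, so their calls are counted here but carry no test. Genes below are given with both fits and were named from either.

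Several of the called genes outside the lists are themselves known interferon targets, and their differences carry no p-value here. They were Trim30d at 123, 86.5, 53.9 and 97.01 CPM against 25.6, 20.2, 26.4 and 28.8 CPM (log2 difference 1.85), Trim34a at a log2 difference of 1.47, the antiviral helicase Mov10 at 1.47, H2-T24 at 1.81, and Trim30c and Gbp10 at 4.04 and 3.58 on 19 and 23 member UMIs.

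Cd69, the early activation protein that holds T cells in tissue and is also induced by type I interferon, was higher in the members. It stood at 234, 202, 293 and 208 CPM in members and 86.3, 97.9, 90.04 and 89.2 CPM in the other T cells, with no overlap. The log2 difference was 1.34, and 1.48 without the epithelial barcodes. As an interferon-induced gene it carries no p-value here either.

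Genes of naive and circulating T cells were higher for 2 of 9 tested, and for 4 of 9 without the epithelial barcodes, with none lower. Over all genes 4.68% were called higher, and 2.02% without those barcodes. Tcf7, the transcription factor TCF-1 that keeps T cells in a stem-like state, was at 117, 77.9, 77.8 and 133 CPM in members and 59.3, 56.5, 50.8 and 63.3 CPM in the other T cells, a difference of 0.80 ± 0.19 (SE, adjusted p = 0.0024) by the edgeR quasi-likelihood test. Il7r, the survival receptor for IL-7, was at 75.9, 74.99, 108 and 144 CPM and 50.7, 54.5, 47.7 and 60.1 CPM, a difference of 0.89 ± 0.20 (SE, adjusted p = 0.00081) by the same test. Both calls were lost without cystine replicate 2 (adjusted p 0.10 for Tcf7 and 0.085 for Il7r), and both held in every such fit once the epithelial barcodes were out. Lef1 and Igfbp4 were the genes called only without those barcodes, at 1.18 (adjusted p = 0.014) and 2.07 (adjusted p = 0.028) by edgeR; each call was lost without cystine replicate 1 and without cystine replicate 2 (highest adjusted p 0.87 and 0.78).

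The natural intraepithelial programme, the innate-like equipment of resident gut T cells, was lower. Of 13 genes tested 8 were called lower and 0 higher (7 and 0 without the epithelial barcodes), against 2.04% of all genes called lower. The median log2 difference was -0.70 (-0.52 without), beside -0.13 (-0.10) over all genes. Fcer1g, the signalling adaptor shared by Fc receptors, was at 1641, 1906, 1617 and 1797 CPM in members and 3089, 3219, 3378 and 3238 CPM in the other T cells, a difference of -0.89 ± 0.10 (SE, adjusted p = 2.7e-10) by the edgeR quasi-likelihood test. Tyrobp (DAP12), the adaptor of activating NK receptors, was at 759, 984, 1473 and 1110.3 CPM and 1952, 1891, 2782 and 2307 CPM, a difference of -1.06 ± 0.11 (SE, adjusted p = 6.6e-12). In both genes every member value lay below every value of the other T cells.

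Cd7 and Ikzf2, of the same list, were lower too. Cd7, an early T and NK cell surface protein, was at 3953, 5114, 3994 and 4197 CPM in members and 6943, 7809, 6537 and 6498 CPM in the others (-0.69 ± 0.09 (SE, adjusted p = 3.7e-08)). Ikzf2 (Helios), a transcription factor of agonist-selected T cells, was at 426, 392, 245 and 266 CPM and 676, 523, 478 and 551 CPM (-0.76 ± 0.13 (SE, adjusted p = 8.9e-06)). Klrb1a, an NK receptor gene outside the list, was at 11.7, 43.3, 17.96 and 43.1 CPM and 98.2, 99.9, 101 and 118 CPM (-1.71 ± 0.24 (SE, adjusted p = 1.3e-07)), and Klrd1 (CD94), also outside it, differed by -0.73 ± 0.12 (SE, adjusted p = 5.1e-06). Each was called without the epithelial barcodes and in every fit that left out 1 sample, by the edgeR quasi-likelihood test. The separate list of gut residency and retention genes did not lean one way. Of its 13 genes tested 3 were called lower and 1 higher, Cd69, whose call carries no test, as given above. Over all genes 2.04% were called lower and 4.68% higher. The median of the list was -0.06, with 5 of its genes above 0. Without the epithelial barcodes 2 were called higher and 1 lower, with a median of 0.13 and 8 above 0. Itga1 (CD49a), a residency integrin, was the one called lower in both fits, at -0.66 ± 0.13 (SE, adjusted p = 8.2e-05) by edgeR on all members.

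Cytotoxic effectors leaned lower: of 16 tested, 4 were called lower and 1 higher (3 and 1 without the epithelial barcodes). Over all genes 2.04% were called lower and 4.68% higher (1.27% and 2.02% without those barcodes). Gzma, which encodes the killing enzyme granzyme A, was at 21349, 24204, 21812 and 20671 CPM in members and 30031, 38799, 30496 and 30799 CPM in the others, a difference of -0.56 ± 0.08 (SE, adjusted p = 2.2e-07) by the edgeR quasi-likelihood test. Gzmb differed by -0.38 ± 0.09 (SE, adjusted p = 0.0038) and the chemokine Ccl5 by -0.41 ± 0.08 (SE, adjusted p = 0.00011). The Gzmb call was lost without control replicate 2 and without cystine replicate 2. With the epithelial barcodes left out these became -0.24 (adjusted p = 0.029) and -0.26 (adjusted p = 0.018). Gzmb was then called only without control replicate 1 and Ccl5 only without cystine replicate 2 (highest adjusted p 0.45 and 0.34 in the other fits that left out a sample). The gene that went the other way was Gzmk, the granzyme of less differentiated memory cells, at 128, 303, 671 and 295 CPM and 159, 279.6, 221 and 193 CPM (0.58 ± 0.16 (SE, adjusted p = 0.013)). Its call was lost without cystine replicate 1 and without cystine replicate 2 (highest adjusted p 0.64), but held in all such fits without the epithelial barcodes (0.77, adjusted p = 1.5e-11).

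Of 10 inhibitory receptors, 6 were called lower (3 without the epithelial barcodes) and 0 higher, beside 2.04% of all genes called lower (1.27% without). Cd244a was at 257, 196, 149.7 and 169 CPM in members and 334, 278, 304 and 334 CPM in the others (-0.70 ± 0.14 (SE, adjusted p = 0.00018) by the edgeR quasi-likelihood test, called whichever sample was left out, but once the epithelial barcodes were out lost without cystine replicate 2). Lag3 differed by -0.49 ± 0.13 (SE, adjusted p = 0.0055), which was lost without control replicate 1 and without cystine replicate 2 (highest adjusted p 0.10). Without the epithelial barcodes Lag3 stood at -0.32 (adjusted p = 0.058 by edgeR) and was called in 0 of the 4 fits that left out a sample. Mast cell proteases were lower as well, with Mcpt1 at 5.84, 5.77, 5.99 and 17.97 CPM on 9 member UMIs against 56.4, 81.8, 24.2 and 92.5 CPM (-2.89 ± 0.35 (SE, adjusted p = 3.3e-09)); Mcpt1 and Mcpt2 are close relatives between which reads can be split. Proliferation genes (0 of 11), ATF4 targets (0 of 12) and ribosomal protein genes (0 of 23, or 2 higher without the epithelial barcodes) were not called by edgeR. Of 13 glutathione and cystine genes, 3 were called higher (1 without the epithelial barcodes), beside 4.68% of all genes (2.02% without). The heat shock list, which also reads the stress of tissue dissociation, had 0 of 10 called and 3 higher without those barcodes.

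Lineage transcripts differed between members and other T cells. Cd8b1, the β chain of CD8 carried by conventional cytotoxic T cells and absent from most natural intraepithelial T cells, was at 146, 138, 820.3 and 417 CPM in members and 89.1, 65.98, 191 and 211 CPM in the others. That was a rise of 1.28 ± 0.15 (SE, adjusted p = 1.8e-09) by the edgeR quasi-likelihood test, called in every fit that left out 1 sample. Cd5 and Cd6, surface receptors of conventional αβ T cells, rose by 1.29 ± 0.25 (SE, adjusted p = 0.00010) and 1.11 ± 0.26 (SE, adjusted p = 0.0016), with the same stability; both were named after their values were seen. Cd8a, the α chain that conventional and natural intraepithelial CD8 T cells share, was lower, at -0.42 ± 0.10 (SE, adjusted p = 0.0044) on all members and -0.27 (adjusted p = 0.013) without the epithelial barcodes. Dropping replicate 2 of either diet ended the first call, and the second survived only the loss of cystine replicate 1 (highest adjusted p 0.13 and 0.23). Trdc and Tcrg-C1, constant segments of the γδ T cell receptor, differed by -0.70 ± 0.14 (SE, adjusted p = 0.00015) and -0.75 ± 0.14 (SE, adjusted p = 6.9e-05). Once the epithelial barcodes were out the calls of both were lost without cystine replicate 1, and that of Trdc also without cystine replicate 2. Of the 15 lineage genes tested 3 were called higher and 6 lower (3 and 3 without the epithelial barcodes). Over all genes 4.68% were called higher and 2.04% lower (2.02% and 1.27% without those barcodes).

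Counted over cells, each thinned to 1000 UMIs, Cd8b1 was detected in 10.1%, 10.7%, 41.1% and 28.3% of members and in 4.80%, 3.76%, 11.4% and 11.4% of the other T cells. The means were 22.6% ± 14.95 and 7.83% ± 4.12 (SD, n = 4), higher in 4 of 4 samples. The two-sided exact permutation test of the paired difference gave p = 0.125, the smallest that 4 pairs allow, and 0.25 adjusted over the 4 lineage genes compared. Unthinned, the members' mean was 26.8% against 8.89%. In the Cd79a cells, which should lack the transcript, Cd8b1 was detected in 0.337% to 1.93%. It was detected in 51.2% to 69.5% of Cd3-negative Siglech cells, the plasmacytoid dendritic cells that the rule leaves out.

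Trdc went the other way, at 29.0%, 24.8%, 6.67% and 12.3% of members and 30.9%, 28.7%, 24.3% and 26.3% of the other T cells, with means of 18.2% and 27.6%. The difference had the same sign in 4 of 4 samples (exact permutation p = 0.125, adjusted 0.25). Unthinned, it did not: Trdc was detected in 42.9%, 42.7%, 13.9% and 26.5% of members and 39.9%, 42.8%, 31.7% and 36.0% of the other T cells, so that control replicate 1 reversed and the mean difference shrank from -9.37 to -6.10 percentage points (exact permutation p = 0.375). Trac, the αβ counterpart, was detected in 37.7%, 25.6%, 20% and 24.5% against 33.6%, 36.3%, 31.2% and 30.4% (exact permutation p = 0.25, adjusted 0.33), and its mean difference of -5.90 percentage points was -0.80 unthinned. Cd8a was detected in 72.8% of members and 79.4% of the other T cells, lower in 4 of 4 samples (exact permutation p = 0.125, not among the 4 genes adjusted), and in 82.8% and 83.4% unthinned. Cd4 was detected in 0%, 0.826%, 2.22% and 1.89% against 0.273% to 0.686% (exact permutation p = 0.375, adjusted 0.375), so few members of any sample held a Cd4 UMI.

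**Figure D3:**
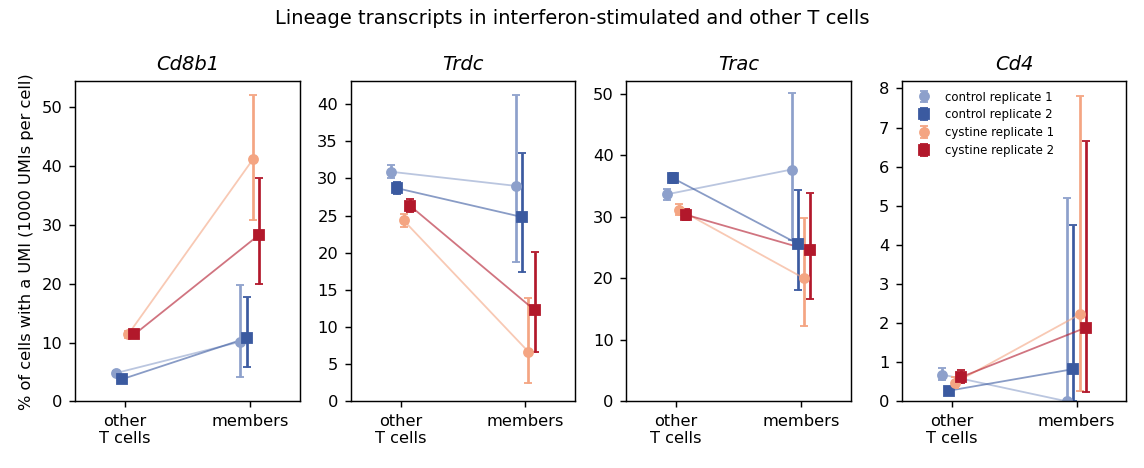
Share of cells with a UMI of Cd8b1, Trdc, Trac or Cd4 (y axis, % of cells thinned to 1000 UMIs) in other T cells and members (x axis), 1 line per sample with exact 95% binomial intervals. Cd8b1 rises in all 4 lines, most steeply in the 2 cystine samples, and Trdc falls in all 4 at this thinned depth.

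Members were found among cells of either lineage, and their rates were not tested. Among cells with Cd8b1 and Cd8a, after thinning, 1.21%, 2%, 2.70% and 1.12% were members (5, 8, 26 and 11 cells), against 0.353%, 0.476%, 0.0820% and 0.186% of cells with Trdc (12, 17, 2 and 5 cells). Of cells with no UMI of Cd8b1, Cd4 or Trdc, 0.306%, 0.376%, 0.416% and 0.413% were members, close to the Trdc values in the controls. Cells with Cd4 gave 0, 1, 1 and 1 members of 50, 22, 26 and 49 cells. Within the set the interferon load of the lineages was measured as well, with no test. The 128 other interferon genes took 2.01%, 2.35%, 2.56% and 2.62% of the UMIs of members with Cd8b1 (8, 14, 49 and 28 cells). They took 2.29%, 1.56%, 2.49% and 2.18% in members with Trdc (32, 51, 10 and 24 cells). Without the epithelial barcodes the Trdc value of control replicate 2 was 1.74% over 50 cells, and the other values were unchanged.

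The comparison with the other T cells was repeated without any cell that held a Cd8b1 UMI and without the epithelial barcodes. At this depth a cell with 0 Cd8b1 UMIs may still express the gene, so such cells remain in part. Cd69 differed by 1.62 and Socs1 by 1.03. Tcf7 differed by 1.09 (adjusted p = 1.1e-05) and Il7r by 1.02 (adjusted p = 0.0033) in the edgeR test. Tyrobp differed by -0.71 (adjusted p = 2.1e-13), Fcer1g by -0.46 (adjusted p = 7.2e-06) and Klrb1a by -1.45 (adjusted p = 5.3e-07). Gzma at -0.26 (adjusted p = 0.11), Trdc at -0.30 (adjusted p = 0.27) and Gzmk at 0.30 (adjusted p = 0.42) were no longer called.

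The share of members among Cd3-positive cells overlapped between the diets. They made up 0.502% (exact Clopper-Pearson 95% interval 0.397% to 0.627%) and 0.869% (0.723% to 1.03%) in the controls, and 0.751% (0.612% to 0.912%) and 0.820% (0.676% to 0.985%) in the cystine samples. The intervals cover counting error only. Both cystine values lay between the 2 controls. The means were 0.685% ± 0.259 and 0.786% ± 0.0485 (SD, n = 2 each), a difference of 0.1003 percentage points (exact permutation p = 1; the smallest p that 2 against 2 allow is 0.333). The sign rested on control replicate 1, without which the difference was -0.0828, and it was -0.0297 with all kept barcodes as the denominator.

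Thinning every cell to 1000 UMIs before the rule lowered all 4 shares and changed their order, to 0.357%, 0.459%, 0.584% and 0.485%. The cystine samples then lay above the controls by 0.126 percentage points on average (exact permutation p = 0.333, the smallest possible). Of 16009, 14637, 16393 and 14829 Cd3-positive cells, 15327, 14277, 13441 and 13779 lacked the 3 excluded transcripts and entered the unthinned share. The exclusion thus removed more cells from each cystine sample than from either control, and most from cystine replicate 1. Among the cells left out, 14, 9, 21 and 19 carried at least 2 of the rule genes. Shares that include them were not computed.

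**Figure D4:**
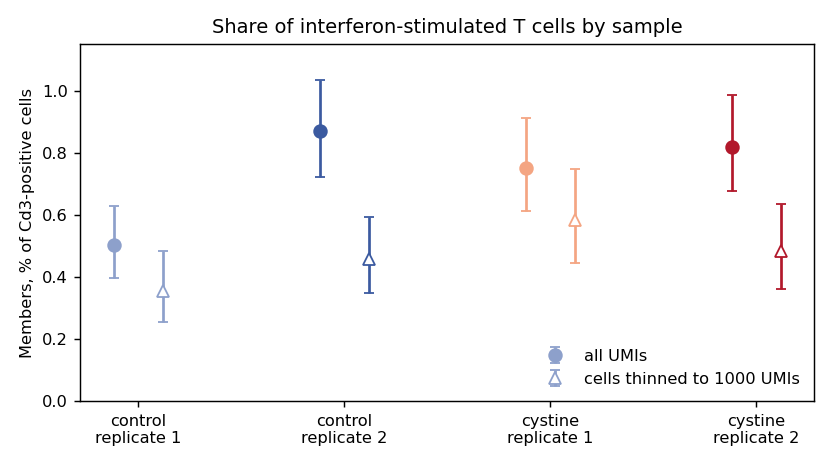
Interferon-stimulated T cells as a share of Cd3-positive cells (y axis, %) by sample (x axis), with all UMIs (filled) and with each cell thinned to 1000 UMIs (open); bars are exact 95% binomial intervals. The unthinned cystine values, 0.751% and 0.820%, lie between the control values of 0.502% and 0.869%.

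Within the members no gene passed the threshold between the diets when all 415 cells were used. The edgeR quasi-likelihood test called 0 of 3714 genes (0% higher and 0% lower), with 226 at an unadjusted p under 0.05, and the DESeq2 Wald test called 8. The 0 holds for the fit on all 4 samples: leaving out 1 sample called 70 genes (without cystine replicate 1) to 158 (without cystine replicate 2), with Cd8b1, Ly6a and Defa24 called in each of the 4 fits. In simulated counts of the same size, edgeR recovered 81.8% of genes changed 4-fold and 21.6% of those changed 2-fold. The simulation used a fixed spread between samples and changed genes with higher counts, and it held no epithelial barcodes. Its shares therefore need not hold for the real counts. Without the epithelial barcodes, which lay in both controls and cystine replicate 2, edgeR called 13 genes higher (0.366% of 3548) and 11 lower (0.31%). The DESeq2 Wald test then called 4 in all. Leaving out 1 sample as well gave 10 (without cystine replicate 1) to 34 (without control replicate 1). In the other T cells the same test called 23 genes higher (0.175% of 13155) and 2 lower (0.0152%). Differences by diet below come from the fit without those barcodes, and its genes were therefore named after the values had been seen. Levels and diet effects of the other T cells given beside them keep the epithelial barcodes of that cell set, for which no such fit was made.

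No gene of the interferon response outside the rule passed the threshold between the diets in the edgeR fit on all members and all 4 samples. With 1 sample left out Ly6a was called in 4 of 4 fits (highest adjusted p 0.0011), and Ly6c2 and Ms4a4b in 3 of 4 each. Irf7, at 479, 381, 563 and 528 CPM, differed by 0.28 ± 0.21 (SE, adjusted p = 0.88) between cystine and control in the edgeR fit. Cxcl10 differed by -0.34 ± 0.43 (SE, adjusted p = 0.97), with control replicate 2 highest and control replicate 1 lowest. Of the 112 interferon genes tested 74 lay above 0, with a median of 0.19 and none called, beside a median of -0.01 over all genes. Without the epithelial barcodes the median was 0.07 (67 of 112 above 0), and 4 were called, all higher on the cystine diet: Ly6a, Ly6c2, Ms4a4b and Ifi27l2a. In that fit 0.366% of all genes were called higher.

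Ly6a was at 147, 63.3, 443 and 362 CPM in the members without the epithelial barcodes, with both cystine samples above both controls, as in 19.6% of all genes tested. The difference was 2.06 ± 0.27 (SE, adjusted p = 9.5e-09) by the edgeR quasi-likelihood test and was called in every fit that left out 1 sample. The other T cells showed 17.99, 16.1, 75.1 and 59.98 CPM and a difference of 1.91 ± 0.15 (SE, adjusted p = 0.00088), and the difference of the differences was 0.18 (adjusted p = 1). In members without a Cd8b1 UMI the difference was -0.12 (adjusted p = 0.99). Ly6c2, an antigen of memory CD8 T cells, was at 6.99, 0, 83.8 and 85.6 CPM (4.84 ± 0.90 (SE, adjusted p = 0.00022)), and its call was lost without control replicate 2 and without cystine replicate 2 (highest adjusted p 0.82).

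Ms4a4b was at 475, 415, 1024 and 751 CPM in the members without the epithelial barcodes (0.97 ± 0.17 (SE, adjusted p = 0.00011) by edgeR). Its call was lost without cystine replicate 1 (adjusted p 0.46), and without the Cd8b1 cells the difference was 0.49 (adjusted p = 0.78). Ifi27l2a, at 468, 404, 784 and 638 CPM (0.69 ± 0.18 (SE, adjusted p = 0.030)), was called in 0 of the 4 fits that left out a sample (highest adjusted p 0.997).

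Lineage transcripts differed between the diets among the members. Cd8b1 was at 175, 169, 820.3 and 451 CPM in the members without the epithelial barcodes, a difference of 1.82 ± 0.22 (SE, adjusted p = 1.6e-09) by edgeR that was called whichever sample was left out. The other T cells had 89.1, 65.98, 191 and 211 CPM and a difference of 1.31 ± 0.15 (SE, adjusted p = 0.0091); the difference of the differences was 0.44 ± 0.20 (SE, adjusted p = 0.98). By thinned cells, 10.4% ± 0.423 of control and 34.7% ± 9.06 of cystine members held Cd8b1 (exact permutation p = 0.333, the smallest possible), beside 4.28% and 11.4% of the other T cells. The groups did not overlap in either cell set.

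Cd2 and Thy1, adhesion and surface proteins of conventional T cells, were at 34.95, 21.1, 89.8 and 105 and 238, 162, 347 and 362 CPM in the members without the epithelial barcodes. They differed by 1.88 ± 0.49 (SE, adjusted p = 0.039) and 0.88 ± 0.23 (SE, adjusted p = 0.035) in the edgeR test. Of the fits that left out 1 sample, both were called only in the one without control replicate 1 (highest adjusted p 0.92 and 0.77). The chaperone genes Hspa8 and Dnaja1 were higher by 0.64 ± 0.13 (SE, adjusted p = 0.00063) and 0.67 ± 0.18 (SE, adjusted p = 0.044). Hspa8 was at 1713, 1961, 2658 and 3175 CPM, and its call was lost without either cystine sample (highest adjusted p 0.79); that of Dnaja1 held only without cystine replicate 1 (highest adjusted p 0.96). Cd74, the invariant chain of MHC class II, had 736, 799, 371 and 165 CPM in all members and 112, 77.3, 371 and 121 CPM without the epithelial barcodes, so that its difference by diet changed from -1.62 to 1.32 (adjusted p = 0.025 by edgeR), the latter lost without control replicate 2 and without cystine replicate 1 (highest adjusted p 0.997).

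Genes of γδ and natural intraepithelial T cells were among those called lower on the cystine diet. Trdc was at 364, 348, 138 and 202 CPM in the members without the epithelial barcodes, a difference of -1.03 ± 0.23 (SE, adjusted p = 0.0045) by edgeR that was lost without control replicate 2 and without cystine replicate 1 (highest adjusted p 0.80). Tcrg-C1 was at 559, 429, 138 and 280.2 CPM (-1.15 ± 0.22 (SE, adjusted p = 0.00029)), lost without cystine replicate 1 (adjusted p 0.67). Both cystine values lay below both controls, as in 16.5% of all genes tested. By thinned cells Trdc was in 26.9% of control and 9.47% of cystine members (exact permutation p = 0.333, the smallest possible). In the other T cells it was in 29.8% and 25.3%, lower on the cystine diet as well.

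Klrd1 was at 643, 801, 371 and 428 CPM (-0.89 ± 0.18 (SE, adjusted p = 0.00081) by edgeR), and its call was lost without control replicate 2 and without cystine replicate 1 (highest adjusted p 0.46). Gzmb was at 6243, 5995, 4179 and 4019.8 CPM (-0.60 ± 0.11 (SE, adjusted p = 0.00019)), lost without either cystine sample (highest adjusted p 0.54). Asb2, a subunit of a ubiquitin ligase, was at 419, 471, 162 and 280.2 CPM (-0.99 ± 0.21 (SE, adjusted p = 0.0029)), lost without control replicate 2 and without cystine replicate 1 (highest adjusted p 0.91). Ikzf2 at 510.3, 478, 245 and 284 CPM (-0.90 ± 0.20 (SE, adjusted p = 0.0042)) and Ccl5 (-0.36 ± 0.09 (SE, adjusted p = 0.023)) were called in such fits only without control replicate 1 (highest adjusted p 0.66 and 0.96). The natural intraepithelial list, with 10 genes tested, had 3 called lower and 0 higher, a median of -0.35 and 1 gene above 0. Over all genes 0.31% of 3548 were called lower. The all-gene median was 0.00, with 1764 of 3542 genes outside the rule above 0. Cytotoxic effectors had 2 of 14 called lower and 0 higher, with a median of -0.20. In the other T cells the natural intraepithelial list had a median of -0.22, with 1 of 13 genes above 0 and 0 called. Their cytotoxic effectors had a median of -0.18, with 1 of 17 above 0 and 0 called. Both lists thus leaned lower by diet in either cell set.

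Without the Cd8b1 cells and the epithelial barcodes, edgeR called 1 gene between the diets, Defa24. The log2 differences there were -0.84 for Trdc (adjusted p = 0.33) and -0.76 for Klrd1 (adjusted p = 0.15). That set was smaller, and the share of Cd8b1 cells moved with diet in the members as given above; their part in the remaining differences was not tested further.

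Defa24, an α-defensin made by Paneth cells, was at 0, 0, 192 and 446 CPM in the members. Both controls were at 0, and against the limit of 3 UMIs over the controls the cystine members were at least 60.5-fold higher (at least 52.4-fold without the epithelial barcodes). The other T cells showed 1.31, 4.26, 289 and 561 CPM, a difference of 7.13 ± 0.52 (SE, adjusted p = 0.00077) by edgeR. Defa30 was at 0, 0, 65.9 and 169 CPM in members, at least 22.5-fold higher. Reads of these near-identical defensin genes can be split between copies. The 6 Paneth and goblet cell markers summed to 35.0, 23.1, 228 and 467 CPM in the members and 29.5, 25.4, 345 and 656 CPM in the other T cells. Defa24 is itself one of these markers and made up most of both cystine sums, so the sums are no separate evidence. Of the other 5, Lyz1, the Paneth cell lysozyme, was at 0, 0, 29.9 and 17.97 CPM in members and 0.0422, 0.257, 40.3 and 38.6 CPM in the other T cells. Defa17 was at 0, 0, 5.99 and 3.59 CPM in members, whereas Zg16, a goblet cell lectin, was at 29.2, 20.2, 0 and 0 CPM. The Paneth cell genes were thus seen only in the cystine members and Zg16 only in the control members, on few UMIs, and their part in the defensin values was not tested.

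**Figure D5:**
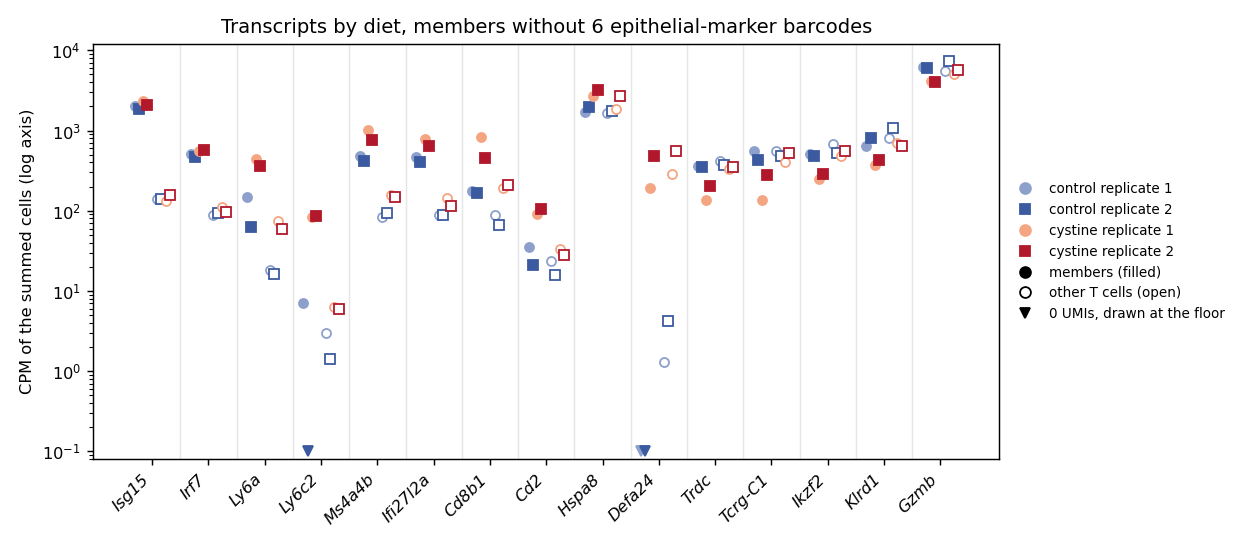
Level of 15 genes (x axis) in CPM of the summed cells (y axis, log scale) in members without the 6 epithelial barcodes (filled) and in other T cells (open), by sample. The other T cells keep their own epithelial barcodes. Triangles at the axis floor mark 0. In members Irf7 and the rule gene Isg15 lie close together over the 4 samples, Cd8b1 and Ly6a lie higher in both cystine samples, and Trdc, Tcrg-C1, Ikzf2 and Klrd1 lie lower.

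The test of whether the diet acted differently in members and other T cells called 7 genes higher (0.0604% of 11587) and 65 lower (0.561%) by edgeR. Of the 65, 59 had more than 50% of their member UMIs in the 6 epithelial barcodes, among them Elf3 (41 of 41 UMIs), Tspan8 (38 of 38), Dmbt1 (40 of 41) and Krt19 (175 of 176). Without those barcodes 4 genes were called higher (0.0352% of 11367) and 3 lower (0.0264%). The DESeq2 Wald test called 14 genes on all members and 0 without the barcodes.

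Ccl4 and Gzmk were called in both fits. Ccl4, a chemokine of activated T cells, was at 93.4, 182, 395 and 266 CPM in the members and 246, 352, 257 and 312 CPM in the other T cells. Its diet effect was higher in members by 1.32 ± 0.25 (SE, adjusted p = 2.6e-05), or 1.07 ± 0.20 (SE, adjusted p = 0.00044) without the epithelial barcodes. The first was lost without cystine replicate 1 (adjusted p 0.93), and the second without either control or without cystine replicate 1 (highest adjusted p 0.71). Gzmk was at 128, 303, 671 and 295 CPM and 159, 279.6, 221 and 193 CPM, with a difference of 1.19 ± 0.23 (SE, adjusted p = 9.3e-05), or 0.95 ± 0.17 (SE, adjusted p = 0.00017) without those barcodes. Both calls were lost without cystine replicate 1, the highest of the 4 member values (adjusted p 1 in each), and the second also without control replicate 2. Without the Cd8b1 cells it was 0.06 (adjusted p = 1), whereas that of Ccl4 was 1.39 (adjusted p = 0.00024).

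Lower in both fits were Tcrg-C1, at -0.84 (adjusted p = 0.037) and -0.93 (adjusted p = 0.00044), and Dennd4a, at -1.12 (adjusted p = 0.011) and -1.22 (adjusted p = 0.0029). Dennd4a, a regulator of Rab GTPases, was at 309, 150.0, 59.9 and 119 CPM in members and 288, 201, 249.7 and 225 CPM in the other T cells. Of the fits that left out 1 sample, both genes were called only without control replicate 2 on all members, and only without cystine replicate 2 once the epithelial barcodes were out. Among the genes of the interferon lists outside the rule the difference was called only for Plac8 and only without the epithelial barcodes (0.75 ± 0.16 (SE, adjusted p = 0.0061), and then only without cystine replicate 1 among the fits that left out a sample).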

How the data were processed

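Single-cell 5′ RNA sequencing measured 2 control and 2 cystine samples, grouped by their titles because the treatment field reads the same for all 4. The deposited matrices hold raw UMI counts per gene (32285 features) and barcode; GRCm39, Cell Ranger 3.1.0 and Seurat 4.0.1 stand in the submitters' processing notes, but 7.0.1 is the version in the matrix headers, so which version made the counts is uncertain. Of 68260 barcodes, 68087 had 300 genes or more and no more than 10% mt- UMIs and were kept. The rule used measured transcripts, and the members, gene lists and tests were chosen with earlier results of these data known. Doublets were kept; removing those marked by Scrublet (scanpy 1.11.5, 0.8% per 1000 barcodes) is an alternative.

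UMIs were summed per sample over members and over other T cells and tested with the edgeR 4.0.16 quasi-likelihood test in R 4.3.3 (filterByExpr, TMM, glmQLFit, glmQLFTest), with Benjamini-Hochberg adjustment over all genes tested and a threshold of 0.05. Diet effects used the 4 sums of a cell set; members against other T cells and the difference of the diet effects used 8 sums with the sample as a block. Cells are not replicates. The standard error of a log2 value was taken as its size divided by the square root of the edgeR F statistic. It thus restates the test and is no separate estimate of error. Shares were compared by two-sided exact permutation tests in scipy 1.17.1. Genes were named by size, up to 10 in each direction (5 for the difference of the diet effects) with an adjusted p of at most 0.05; the diet effect also required groups that do not overlap and a group mean of at least 20 CPM, and members against other T cells the same direction in 4 of 4 samples and 20 CPM in 1 set. Up to 4 genes of each list, the rule genes and Cxcl10 were added. Applying this without the epithelial barcodes, and naming Cd5, Cd6 and Igfbp4, were choices made after the values were seen. Not every gene that this rule names is reported here. Scripts were tested on counts simulated with a fixed spread between samples, with changed genes drawn from those with higher counts. For members against other T cells edgeR recovered 55.6% of genes changed 4-fold and 22.9% changed 2-fold among 11384 genes. Alternatives were size factors and the Wald test of DESeq2 1.42.0, no filter on low counts, the replicate number as a block, each sample left out in turn, all 3 rule genes, other comparison cells (without a UMI of the rule genes, or drawn to the members' depth), at least 800 genes with at most 5% mt- UMIs, doublet removal and thinning to 1000 UMIs. Of the listed genes, 7 have no row in the matrices and were not analysed here. The 38 symbols shared by more than 1 feature are not named.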

Additional observations from a re-analysis of the deposited data

Results flagged for a closer look

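The test of the difference between the diet effects in members and in other T cells called the genes below; each value is the log2 difference of cystine over control in members minus that in other T cells, by the edgeR quasi-likelihood test. Ccl4 stood at 1.32, and 1.07 without the epithelial barcodes. Gzmk stood at 1.19, and 0.95 without them. In members Ccl4 was detected with 16, 63, 66 and 74 UMIs and Gzmk with 22, 105, 112 and 82. In CPM cystine replicate 1 was the highest of the 4 in both genes, and it is the sample without epithelial barcodes.

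Orc2 (2.10), Esf1 (1.87) and Rpa1 (1.09) were called on all members, with 0, 8, 12 and 20, 4, 6, 15 and 19 and 13, 32, 25 and 48 UMIs. None of the 3 was called without the epithelial barcodes, and of the fits that left out 1 sample only Orc2 was called, in the fit without control replicate 2. Tmem176b was called lower (adjusted p = 0.017), with 11, 12, 0 and 0 UMIs in members. Its cystine members were at 0 and at least 6.59-fold lower than the controls against the limit of 3 UMIs over the group; 5 of its 23 member UMIs lay in the epithelial barcodes.

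Without the epithelial barcodes Plac8 was called at 0.75, whereas on all members it stood at -0.04. Tcrg-C1 stood at -0.84 on all members and -0.93 without those barcodes, and Dennd4a at -1.12 and -1.22. The member counts behind them were 80, 122, 23 and 72 UMIs for Tcrg-C1 and 53, 52, 10 and 33 for Dennd4a.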

How the results depend on the processing

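Of 3093 recomputed values of 155 single-gene results, 2361 were labelled the same. These kept their direction and their side of the threshold or, where no test was made, moved by less than the spread. Of the rest, 373 lost and 165 gained their call. Another 184 were labelled moved: they changed sign with no call in either fit or, where no test was made, moved by at least the spread. All 29 moved values of the diet effect within members were such sign changes, as were all 14 of the difference of the diet effects. The last 10 reversed, with a changed sign and a call in at least 1 of the 2 fits. The share of members moved from 0.1003 percentage points to -0.0297 with all kept barcodes as denominator and to -0.0828 without control replicate 1 (range without 1 sample -0.0828 to 0.283). The diet effect within members, 0 genes in the edgeR fit on all members, came to 8 with the DESeq2 Wald test, 166 without the low count filter, 1 with the replicate block, 16 with crossed pairs, 47 with all 3 rule genes, 4 after thinning and 70 to 158 without 1 sample. Without the epithelial barcodes it came to 24, with size factors 23, with the Wald test 4, with the replicate block 17, without 1 sample 10 to 34, and to 1 also without the Cd8b1 cells. In other T cells the 25 genes became 56 with the Wald test, 254 without the filter, 289 with the replicate block and 1 to 313 without 1 sample. The difference of the diet effects, 72 genes, became 14 with the Wald test, 2 after thinning, 20 to 73 without 1 sample and 7 without the epithelial barcodes (7 with size factors, 0 with the Wald test, 0 to 7 without 1 sample, 2 without the Cd8b1 cells). Members against other T cells, 778 genes, became 406 with all 3 rule genes, 274 after thinning, 331 with the other T cells drawn to the members' depth, 444 to 1013 without 1 sample, and 374 without the epithelial barcodes (420 with size factors, 269 with the Wald test, 223 to 335 without 1 sample, 230 without the Cd8b1 cells). In the comparison with the other T cells the split of 542 higher and 236 lower became 113 and 161 after thinning. With the other T cells drawn to the members' depth it became 279 and 52. The cause of these shifts was not tested.

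Values that reversed with a call in at least 1 fit were Thy1 at -0.14 and Gzmk at -0.26 with all 3 rule genes, and Mcpt2 at 0.20 after thinning, all against other T cells. Cd74 by diet was 1.32 without the epithelial barcodes, 1.49 and 1.996 when control replicate 1 or cystine replicate 2 was left out as well, and 1.32 with size factors (-2.25 to 1.996 over all fits without 1 sample). Plac8, difference of the diet effects, was 0.75, 0.97 without cystine replicate 1 as well and 0.74 with size factors (-0.82 to 0.97 over all fits without 1 sample). Steps on epithelial barcodes, Cd8b1 cells and crossed pairs were chosen after seeing the data. The replicate numbers pair no samples by the labels; same-numbered samples correlated at -0.115 in their deviations in members and 0.0965 in other T cells. Leaving out 1 sample leaves 1 group with a single sample, assumed to vary like the other. With 77 to 124 members per sample, 3714 genes had enough counts for the diet test.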
